A study of Drosophila melanogaster with 4 samples.

Results

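Short RNAs that end in CCA, the 3 bases at the 3′ end of mature transfer RNAs (tRNAs), were collected from small RNA lists of Drosophila melanogaster larvae. They were all tags (distinct read sequences) of 14 to 20 nt with no undetermined base whose last 3 bases are CCA and that share no exact 14-base stretch with the most abundant 30 nt tag. Of 53161 tags of these lengths that met the other conditions, 594 ended in CCA, out of 252353 distinct tags of all lengths. The exclusion of relatives of the 30 nt tag removed 153 short tags, of which 0 ended in CCA. The members were chosen by length and sequence, not by level.

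Transfer RNAs carry amino acids to the ribosome, and the amino acid is attached to the last A of the CCA tail. In animals the tail is not written in nuclear tRNA genes. The CCA-adding enzyme puts it on after the 3′ trailer has been cut away. Fragments of tRNAs that keep the 3′ end therefore also keep the tail, and many start in or near the T loop, the conserved loop closest to that end. The ending alone does not mark a tRNA, however, since RNAs of any other kind can also stop after a CCA.

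The libraries were made from groups of 50 male larvae of the third instar. The 2 snapback libraries came from males with ectopic expression of double-stranded 1.688 RNA, a satellite repeat, which a snapback (self-pairing) transgene supplies. The 2 control libraries were from yw, a laboratory reference strain. The labels name no promoter or driver for the construct. Nor do they say that the 2 libraries of a genotype were grown apart, so each p-value reflects only the spread of these samples, perhaps a technical spread. Whole larvae mix all tissues, so fewer cells of a type and less RNA per cell cannot be told apart.

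Snapback replicates 1 and 2 had 5330415 and 7782397 listed reads, whereas yw replicates 1 and 2 had 20453996 and 15183229. Tags of 14 to 20 nt made up 12.4% and 12.9% of snapback reads, less than the 32.8% and 21.5% of yw reads. Reads of 40 nt, the longest listed, made up 4.98% and 4.18% of snapback reads and 14.6% and 39.8% of yw reads. The most abundant 30 nt tag alone took 36.5% and 35.5% of snapback reads, against 0.752% and 0.703% of yw reads. The genotypes therefore differed in library make-up as well as in label, and the part of that difference in the results was not tested. No tag with fewer than 4 reads was listed, so an absent tag may hide up to 3 reads, worth 0.147 to 0.563 reads per 1000000 listed reads (RPM).

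Tags that shared their last 14 bases were summed as a family, since they are shorter and longer forms of a single 3′ end. The 594 tags fell into 278 families, numbered by mean level. The tags carry no coordinates and no genome sequence was used, so their chromosomes could not be assigned and whole tags are not printed. The last 9 bases are given for the 13 families that the results turn on, 5′ to 3′, with the CCA end in capitals.
family 1: agggcaCCA
family 2: tgggcgCCA
family 3: gacgcaCCA
family 4: gatgcaCCA
family 5: ggggagCCA
family 6: gaacctCCA
family 7: agggagCCA
family 8: ttggggCCA
family 9: agtcggCCA
family 10: ggactaCCA
family 11: tgttggCCA
family 13: actgcgCCA
family 17: ggggcgCCA
Families 1 to 10 are the most abundant. Among families with a mean of at least 10 RPM, families 7, 8, 11, 13 and 17 are the largest rises in snapback. Family 9 is the only fall at that level. Families 7, 8, 11 and 17 were listed in neither yw library and family 9 in neither snapback library. Their ranks rest on counts entered as 0, so no p-value is given for them. The last 14 bases of families 3 and 4 differ at 1 position. Smaller families can also differ from an abundant family at 1 position, such as families 132 and 137 from family 3. They are counted apart in all counts of families. No family is given a tRNA gene, although the Ensembl annotation of BDGP6.54 lists 312 tRNA genes, 98 of them on arm 2R.

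Short RNAs ending in CCA were higher in both snapback libraries than in both yw libraries. Snapback replicate 1 had 17966 of these reads and replicate 2 had 30219, which is 3370 and 3883 RPM (exact Clopper-Pearson 95% intervals 3321 to 3420 and 3839 to 3927). In yw replicates 1 and 2 they held 6327 and 10025 reads, or 309 and 660 RPM (302 to 317 and 647 to 673). The genotypes did not overlap, and the yw libraries differed from each other far beyond counting error. The mean was 3627 ± 362 RPM in snapback and 485 ± 248 RPM in yw (SD, n = 2 each), a 7.48-fold difference with an exact two-sided permutation p of 0.333, the smallest that 2 against 2 libraries allow. The difference was 11.7-fold without yw replicate 2, 3.78-fold without the 2 most abundant groups of tags that share a 3′ end, and 3.39-fold with 40 nt tags added. The intervals cover counting error only, because reads were not collapsed to molecules.

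The same order held within the short reads. Of all reads of 14 to 20 nt, 2.72% and 3.01% ended in CCA in snapback, against 0.0944% and 0.307% in yw. The means of 2.87 ± 0.205% and 0.201 ± 0.150% (SD, n = 2 each) differed 14.3-fold (exact permutation p = 0.333), or 9.35-fold without yw replicate 1 and 30.4-fold without yw replicate 2. Counted as distinct tags rather than reads, the shares were 2.60% and 2.51% in snapback and 0.614% and 0.997% in yw, a 3.17-fold difference of the means. Snapback libraries thus held a larger share of distinct CCA tags and also more reads on each, 71.9 and 94.1 a tag against 28.4 and 40.1. The number of such tags was alike, at 250 and 321 in snapback and 223 and 250 in yw.

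Against the other 63 possible 3-base endings at the same lengths, CCA stood near the top in snapback and near the bottom in yw. By reads it ranked 10 of 64 in both snapback libraries, and 58 and 48 in yw replicates 1 and 2. By distinct tags it ranked 12 and 13 in snapback, and 53 and 43 in yw. Over all libraries together, its 594 tags placed it only at rank 40, beside a median of 690 tags for the other endings. CCA is therefore not an unusually frequent ending in the lists as a whole.

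**Figure D1:**
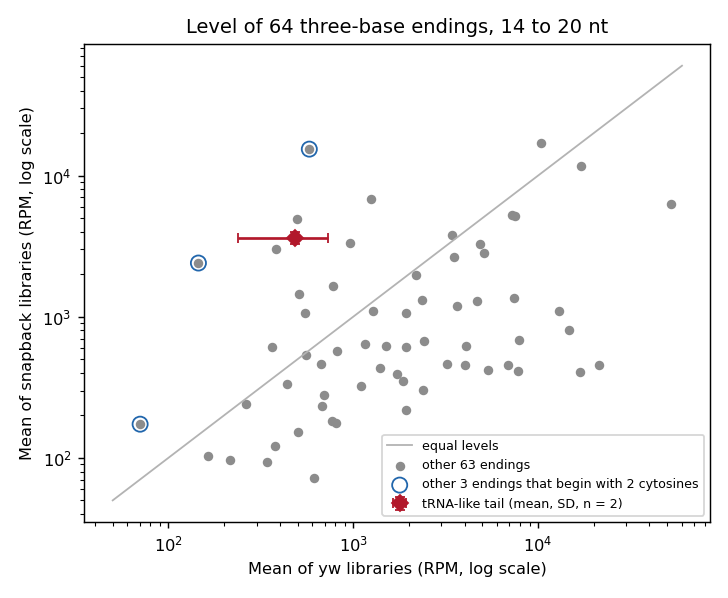
RPM for each of the 64 three-base endings of 14 to 20 nt tags, snapback mean on the vertical and yw mean on the horizontal log axis. The CCA ending is the red diamond with SD bars (n = 2), drawn as the tRNA-like tail, and at 3627 against 485 RPM it lies above the line of equal levels, as do the circled endings CCT, CCC and CCG.

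The rise was shared by the endings with adjacent cytosines, all 7 with TMM scaling and 6 with totals, where CCG did not pass. Counts summed by ending were fitted with edgeR's quasi-likelihood test (Benjamini-Hochberg adjustment), and 39 of 64 endings (60.9%) passed: in snapback, 14 rose (21.9%) and 25 fell (39.1%). With totals in place of TMM the split was 11 higher and 33 lower, and with DESeq2 it was 26 higher and 22 lower. The CCA ending was 3.80 ± 0.57 higher on the log2 scale (SE, adjusted p = 0.00171), rank 5 of 64, and passed under each of these scalings. In all 7 endings with adjacent cytosines every snapback library lay above every yw library, which was so for 13 of 64 endings (20.3%). Of the 57 endings without adjacent cytosines, 7 rose and 25 fell. Among those that rose, TCT rose by 3.91 on the log2 scale, more than CCA, and CTC by 2.71, more than CCG at 2.19.

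The ending CCT was far more abundant than CCA, at 12965 and 17816 RPM in snapback and 326 and 831 RPM in yw. It rose by 5.62 on the log2 scale (edgeR adjusted p = 0.000901). The ending CCC held 1530 and 3271 RPM against 57.6 and 233 RPM and rose by 4.91 (edgeR adjusted p = 0.00241). CCG was the rarest of the 4 endings that begin with CC, at 168 and 178 RPM against 43.9 and 96.8 RPM. The higher level in snapback was therefore not particular to the bases CCA.

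Length showed where the rule cut the distribution. Members of 14 nt were 53.2% of CCA reads in snapback replicate 1 but 23.7% in replicate 2 and 18.7% and 20.5% in yw. In snapback replicate 2 the most frequent length was 15 nt, with 35.2% of reads. Lengths of 18 to 20 nt together held 5.89% and 4.96% of CCA reads in snapback and 18.3% and 13.9% in yw. The snapback libraries thus differed from each other at 14 nt, where family 1 alone held 7241 of 9554 CCA reads in replicate 1 and 3146 of 7159 in replicate 2. Just outside the limits, CCA tags of 13 nt held 222 and 173 RPM in snapback and 31.7 and 36.9 RPM in yw. Those of 21 nt held 56.3 and 43.3 RPM in snapback and at most 19.0 RPM in yw.

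**Figure D2:**
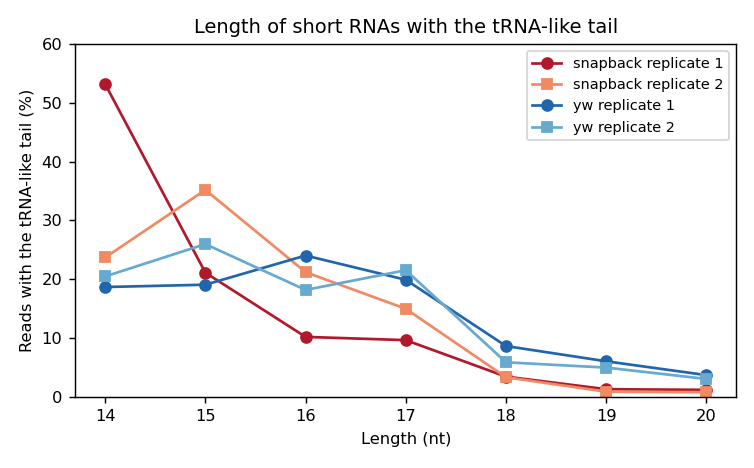
Share of CCA-ended reads, drawn as the tRNA-like tail (vertical axis, %), at each length from 14 to 20 nt (horizontal axis), with a line for each library. Snapback replicate 1 peaks at 14 nt with 53.2%, snapback replicate 2 at 15 nt with 35.2%, and both yw libraries are flatter up to 17 nt.

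The label of a tRNA tail was compared with sequence features that the rule did not use. Most tRNAs have a C in the T stem that lies 16 bases from the 3′ end of the mature molecule, counting the last A as base 1. Of the 375 CCA tags long enough to show this base, 178 (47.5%) had a C there. That was the highest share among the 64 endings, whose other members had a median of 16.9% and a highest value of 33.4%. CCA also ranked first for C at base 15 (45.9%) and at base 5 (46.3%), the last base of the acceptor stem, although at base 5 it was second in each yw library (37.5% and 41.4%). At base 20, which 47 tags reached, CCA ranked last, at 2.13%.

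The share at base 16 was not carried by a single library. It was 55.2% and 62.7% in snapback, against 43.1% and 51.7% in yw, the highest of 64 endings in each of the 4 libraries. With a single tag counted for each family it was 43.1% of 202, again the highest. Families that differ from an abundant family at a single base still count apart there, so tags of a shared source are not all removed. The feature was thus present in both genotypes, although the level of the tags differed between them.

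**Figure D3:**
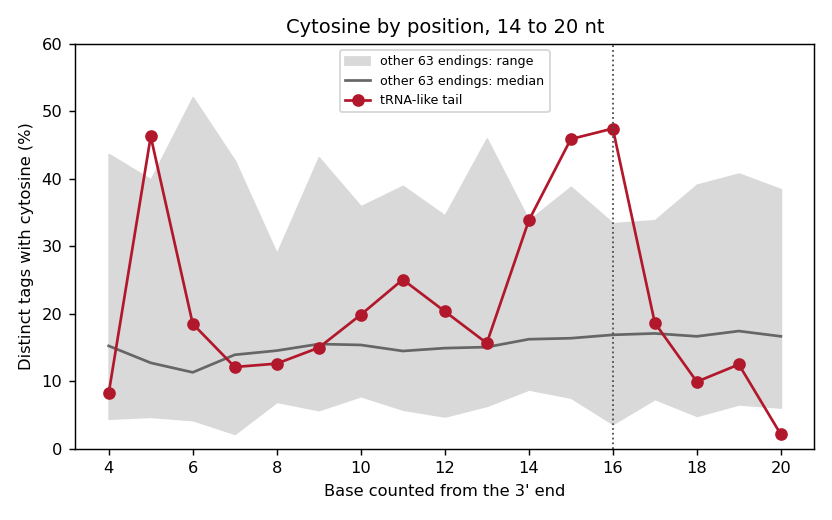
Share of tags with a C (vertical axis, %) at each base counted from the 3′ end (horizontal axis), for CCA tags (red, drawn as the tRNA-like tail) and for the median and range of the other 63 endings (grey). CCA tags stand above all other endings at base 16 (47.5%), base 15 (45.9%) and base 5 (46.3%).

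Longer tags that also ended in CCA gave a second feature. The T loop of tRNAs carries the letters TTCNANNC (N is any base), and in a mature tRNA their last C falls on base 16 from the 3′ end. The motif was searched on the tag strand only, in tags of 23 to 34 nt, with its last base at that place. It was present in 25 of 159 CCA tags (15.7%) and in 3 of 17148 tags with other endings (0.0175%). Searched anywhere in the tag, it was in 309 of all 17307 tags of that length (1.79%). A match is a description of the letters and does not identify a tRNA.

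The T-loop tags themselves were few. They numbered 12 and 24 in snapback and 1 and 2 in yw, with 18.4 and 34.2 RPM against 0.342 and 1.25 RPM. All CCA tags of 23 to 34 nt held 281 and 199 RPM in snapback and 80.6 and 62.4 RPM in yw, so long CCA tags were much rarer than short ones in every library. A longer tag with the T-loop letters shared its last 14 bases with 8 of the 278 short families, which together held 105 and 334 RPM in snapback and 22.8 and 92.6 RPM in yw. Replicate 1 of snapback lay only slightly above replicate 2 of yw, and most of these reads belonged to family 5.

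Among these 8 T-loop families, named for that feature and not for their level, the difference between genotypes was uneven. By edgeR 6 of the 8 were tested, and 3 rose and 0 fell, beside 27% and 47.6% over families of all endings. Not all of the 8 are listed here. Family 20 held 9.19 and 21.6 RPM in snapback and 1.86 and 1.71 RPM in yw, and rose by 2.96 on the log2 scale (edgeR adjusted p = 0.0237). Family 52 held 6.19 and 3.47 RPM against 0 and 0.263 RPM (edgeR adjusted p = 0.00663). Family 54 held 3.56 and 5.78 RPM in snapback and was listed in neither yw library, at least 18-fold higher than 3 reads a library allow. Family 35, with 4 longer tags that carry the letters, held 3.56 and 11.4 RPM against 1.66 and 2.11 RPM and did not pass (log2 1.86, edgeR adjusted p = 0.141). Family 107 held 0 and 1.03 RPM in snapback and 0.244 and 1.58 RPM in yw, which overlap.

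The base just before the tail, which many aminoacyl-tRNA synthetases read (the discriminator base), was mostly a purine. It was A in 41.8% and G in 41.2% of CCA tags, C in 8.25% and T in 8.75%. For A this was rank 5 of 64 endings, beside a median of 19.9%, but for G only rank 29. By reads, A led in snapback replicate 1 (71.0%) and G in snapback replicate 2 (54.8%). Family 1 has A at this base and family 2 has G. T was more frequent in yw, at 15.0% and 12.4% of reads, than in snapback, at 1.58% and 1.53%.

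The families most abundant over both genotypes held most CCA reads in snapback and a smaller share in yw. The higher snapback levels weigh on this ranking, so a smaller share in yw is partly built in. In yw replicate 2, families 9 and 5 (109 and 86.9 RPM) lay above families 1 and 2 (46.5 and 67.5 RPM). The 2 most abundant families held 58.4% and 57.5% of CCA reads in the snapback libraries and 15.8% and 17.3% in yw. The 10 most abundant held 81.7% and 86.4% in snapback and 40.6% and 63.9% in yw. Of the 278 families, 57 were listed in both genotypes, 126 in snapback only and 95 in yw only. Among families with enough reads to be tested, 48 of 90 CCA families and 2585 of 5690 families of all endings were listed in both. The split is therefore not a trait of CCA families alone. The 57 shared families carried 87.1% and 91.0% of snapback reads and 65.2% and 66.5% of yw reads. Families of a single genotype held 435 and 350 RPM in all in snapback, and 108 and 221 RPM, or 34.8% and 33.5% of CCA reads, in yw.

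Families of all endings were fitted together with edgeR's quasi-likelihood test. Of 5690 families tested, 4250 passed (74.7%), of which 1539 rose (27%) and 2711 fell (47.6%). Of the 278 CCA families 90 passed the filter on low counts, and of these 50 rose, 13 fell and 27 did not pass the test. A family listed in a single genotype that passes the filter had to differ, as all 31 snapback-only and all 11 yw-only families did, so these counts are a description. Among the 32 CCA families listed in all 4 libraries, 12 rose and 0 fell, with a median of 1.83 on the log2 scale. The same count over families of all endings was not made, so whether 12 of 32 is unusual cannot be told. Calls were lost when either snapback library was left out, and fewer CCA families passed without either yw library. Such fits leave a single library in a group, and shares over all families are not given for them. The loss can therefore not be read as particular to CCA families.

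The median fitted difference was 2.84 on the log2 scale over the 90 CCA families and -2.20 over all 5690. With absent families set at the bound that 3 reads in a library allow, the medians of the log2 RPM ratio were 2.53 and -0.93. Over families listed in both genotypes they were 1.97 for 48 CCA families and -0.02 for 2585 families of all endings. Single tags leaned the same way. Tags listed in a single genotype, which passed the filter through that genotype alone, are among them, so their counts are a description. Of 594 tags 163 passed the filter, and by edgeR 93 were higher and 18 lower, calls that were lost when any 1 library was left out. Over all 30852 tags tested 78.8% changed, 37.9% higher and 40.8% lower. The median difference was 3.01 on the log2 scale for CCA tags and -0.46 for all tags, both with tags of a single genotype included.

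Whether the bases before the tail are normally followed by CCA separated the families into kinds. For each family the 11 bases before the CCA were searched in all tags of 14 to 34 nt, and the share of their RPM, summed over the 4 libraries, that ended exactly at the CCA was taken as its tail share. In a mature tRNA nothing follows the tail. At a tail share of 50% or more stood 122 families with 281 tags. The other 156 families had 313 tags, and in 110 of these families the share was under 10%. On either side of the limit lay values of 49.9% and 50.3%.

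The tRNA features went with the tail share. A C at base 16 was found in 127 of 175 tags (72.6%) of the families at 50% or more, in 51 of 200 tags (25.5%) of those under 50%, and in 28 of 135 tags (20.7%) of those under 10%. Of the 8 T-loop families 5 were at 50% or more and 0 were under 10%. Tags of a family share their source, so these shares are given without a test. A high tail share was not particular to CCA, however. Of the CCA families 43.9% were at 50% or more, which was rank 9 among all endings. The other endings had a median of 25.7% and a highest value of 56.1%. The tail share by itself therefore does not mark a tRNA-like end. The tRNA features were more frequent in the families at 50% or more. In the others the same bases more often stopped short of the full CCA or went on to other bases.

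Both kinds of family were higher in snapback. The families at 50% or more held 1349 and 2881 RPM in snapback and 133 and 352 RPM in yw, an 8.73-fold difference of the means (2115 ± 1084 and 242 ± 154 RPM, SD, n = 2 each). Those under 50% held 2022 and 1002 RPM against 176 and 309 RPM, a 6.23-fold difference, and neither kind overlapped between genotypes. Of the level under 50%, family 1 alone supplied 1650 and 718 RPM in snapback and 34.4 and 46.5 RPM in yw. The 110 families under 10%, which lack family 1, held 290 and 203 RPM in snapback and 74.5 and 228 RPM in yw, which overlap (1.63-fold). By edgeR 26 rose and 3 fell of 44 tested at 50% or more, 24 rose and 10 fell of 46 under 50%, and 14 rose and 9 fell of 30 under 10%, beside 27% higher and 47.6% lower over all families tested. The tail share was pooled over both genotypes, so more CCA-ended reads in snapback raise it by themselves. The levels of these kinds are therefore a description, and the difference between them was not tested.

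Family 2 was the most abundant family with a high tail share, 96.2%. It held 319 and 1514 RPM in snapback and 14.3 and 67.5 RPM in yw. The snapback libraries differed widely from each other, yet both lay above yw. It rose by 4.35 ± 1.06 on the log2 scale (SE, edgeR adjusted p = 0.00341), and its 15 nt tag carried 51.7% of its reads. The log2 difference was 3.61 without yw replicate 1, 5.12 without snapback replicate 1 and 2.60 without snapback replicate 2, and its call was lost in each of these fits. The other named families that had passed also lost their calls without either snapback library, which leaves a single library in that group. A C at base 16 was present in 3 of the 4 tags that reach it.

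Families 3 and 4 form a pair with nearly the same last bases. Family 3 held 230 and 369 RPM in snapback and 5.08 and 16.1 RPM in yw, a 28.2-fold difference of the means (log2 4.65 ± 0.95, SE, edgeR adjusted p = 0.00178). Family 4 held 253 and 236 RPM against 16.7 and 41.8 RPM, an 8.36-fold difference (log2 2.87 ± 0.83, SE, edgeR adjusted p = 0.0094). Both were listed at all 7 lengths, were led by a 17 nt tag, and had a C at base 16 in all 6 and all 5 tags that reach it. Family 4 did not pass with a replicate block (edgeR adjusted p = 0.0514) and lost its call without yw replicate 1 (log2 2.40). Tail shares were 92.4% and 88.5%. For family 4, longer tags with the same end held 69.2 and 56.5 RPM in snapback and 41.5 and 92.8 RPM in yw, which overlap. Whether the 2 families differ in their response was not tested.

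Families 5 and 6 also had the tRNA features but did not pass the test. Family 5, the one with T-loop letters in 3 longer tags, held 81.4 and 288 RPM in snapback and 19.1 and 86.9 RPM in yw, which overlap (log2 1.66 ± 0.99, SE, edgeR adjusted p = 0.151). Family 6 held 39.2 and 42.7 RPM in snapback and 29.8 and 53.0 RPM in yw, with the snapback values inside the range of yw (log2 -0.20 ± 0.84, SE, edgeR adjusted p = 0.841). The direction of family 6 turned with absent tags at 3 reads and without yw replicate 2. Tail shares were 78.9% and 82.6%, and every tag long enough had a C at base 16, 5 of 5 and 9 of 9. Abundant families with these features thus did not all pass.

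**Figure D4:**
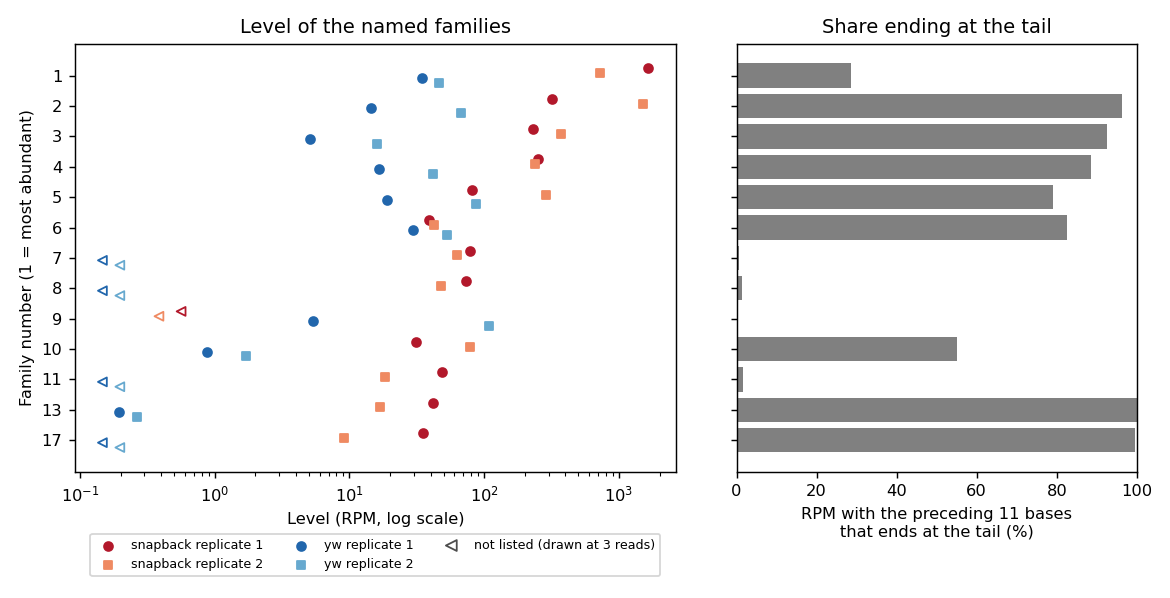
Level of each named family in each library (horizontal log axis, RPM), with snapback libraries in red and orange and yw libraries in blue, and open triangles at 3 reads where a family was not listed. The bars give the tail share (%). Families 1 to 4 lie higher in both snapback libraries, families 5 and 6 overlap between genotypes, and family 9 is listed in yw alone.

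Smaller families with a tail share over 50% rose too. Family 10 held 31.0 and 77.9 RPM in snapback and 0.880 and 1.71 RPM in yw (log2 5.24 ± 1.13, SE, edgeR adjusted p = 0.00181), with a C at base 16 in 0 of 4 tags. Its tail share of 55.2% came from snapback, where 59.4% and 83.1% of reads with its 11 bases ended at CCA, against 3.90% and 4.95% in yw. Family 13 held 41.5 and 16.8 RPM against 0.196 and 0.263 RPM, a 127-fold difference (edgeR adjusted p = 0.00145). Each yw value stands for 4 reads, the lowest count listed, so the size of the fold is uncertain. Its 11 bases were followed by a final CCA in 100% of reads. Family 17 held 35.3 and 9.12 RPM and was listed in neither yw library, at least 46.2-fold higher than 3 reads a library allow. Its tail share was 99.6%.

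Family 1, the most abundant of all, went against the label. It held 1650 and 718 RPM in snapback and 34.4 and 46.5 RPM in yw, a 29.3-fold difference of the means (log2 4.65 ± 0.74, SE, edgeR adjusted p = 0.00124). Its 14 nt tag carried 71.9% of its reads in all libraries together. Its tail share was only 28.6%, 0 of 5 tags had a C at base 16, and 1439 reads went on past the CCA. A single family of this kind supplied 49.0% of CCA reads in snapback replicate 1 and 18.5% in replicate 2.

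In families 7, 8 and 11 the CCA end was a minor end of the stretch before it. Family 7 held 78.4 and 62.4 RPM in snapback and was listed in neither yw library, at least 316-fold higher than 3 reads a library allow. Its 11 bases were abundant in both genotypes but higher in snapback, at 8483 and 13023 RPM against 1438 and 1100 RPM in yw, and 0.924%, 0.480%, 0% and 0% of these reads ended at CCA. In yw 85.5% and 81.6% of them stopped at the first C, and in each snapback library at least 53.4% went on to other bases. Family 8 held 73.4 and 47.9 RPM against 0 and 0 RPM, at least 243-fold higher, with a tail share of 1.38%. Family 11 held 48.6 and 18.5 RPM against 0 and 0 RPM, at least 93.6-fold higher, with a tail share of 1.68%, although a C stood at base 16 in all 5 of its tags. In families 8 and 11 the 11 bases were far higher in snapback, at 3806 and 4938 RPM against 19.3 and 42.9 RPM for family 8, and 2281 and 1711 RPM against 14.4 and 25.4 RPM for family 11.

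Family 9 was the reverse case. It was listed in neither snapback library and held 5.38 and 109 RPM in yw replicates 1 and 2, at least 9.56-fold lower in snapback. Nearly all of it came from yw replicate 2. Only 0.0209% and 1.49% of reads with its 11 bases ended at CCA in yw, of 527051 and 110843 such reads. Reads of 40 nt that held the family's shared last bases at any place numbered 7 and 0 in snapback and 38 and 3039 in yw. The library with most of family 9 was thus also the one with most such 40 nt reads. Whether the 2 are linked was not tested.

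The forms of the 3′ end differed between families and, in some, between genotypes. In family 1, which went against the label, 53.3% and 78.0% of snapback reads with its 11 bases ended in CC and 41.1% and 17.6% in CCA. In yw 65.7% and 49.3% of such reads stopped at the first C and 13.4% and 21.9% at CCA. In family 2 the end was CCA in 93.7% and 96.9% of reads in snapback and 92.4% and 92.5% in yw.

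Family 3 kept its tail in snapback and often lacked it in yw. The end was CCA in 95.8% and 94.6% of its snapback reads but in 53.0% and 55.8% of its yw reads. Reads with no tail were 0% and 0% in snapback and 30.5% and 27.4% in yw, and reads ending in CC were 3.90% and 4.06% against 14.8% and 12.9%. Its near twin, family 4, did not show this, with CCA in 88.7% and 86.0% of snapback reads and 93.4% and 91.8% of yw reads. In family 10, reads that went on past CCA were 4.32% and 2.68% in snapback and 83.1% and 90.1% in yw. These shares were not tested.

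Nested series with a shared 3′ end were common but only slightly more so than for other endings. Of the 594 CCA tags, 74.6% shared their last 14 bases with a shorter or longer CCA tag, rank 7 of 64, beside a median of 69.0% and a range of 57.4% to 77.0% for the other endings. By library the share was 74.8% and 78.2% in snapback and 72.6% and 79.6% in yw, so the genotypes overlapped. Tags sharing their first 14 bases were fewer than for most endings, 61.8% against a median of 74.7% (rank 56). Of the 129 families with at least 2 tags, 24 spanned 5 or more lengths and carried 84.2% and 89.5% of CCA reads in snapback and 50.2% and 56.0% in yw.

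Reads stopped at the CCA more often in snapback than in yw. Of reads of 14 to 34 nt that held the last 14 bases of a CCA tag, 62.6% and 60.7% ended there in snapback (ranks 3 and 6 of 64), against medians of 17.7% and 14.7% for the other endings. In yw the shares were 31.0% and 42.9% (ranks 25 and 16). In 185 families (66.5%) no longer tag went past the CCA at all, rank 2 of 64, beside a median of 37.1%. These 185 families held only 22.6% and 20.8% of CCA reads in snapback and 17.2% and 21.6% in yw. The genotypes did not overlap in the stop share, whose difference was not tested.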

How the data were processed

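Small RNA was sequenced from male larvae, 2 snapback and 2 yw libraries, grouped by the genotype label. Per the labels' protocols, RNA of 50 larvae was extracted in Qiazol, enriched with the miRNeasy kit and made into libraries with an Illumina small RNA TruSeq kit. The authors deposited, per the file headers, distinct tags with their read count, not normalized, and the lowest count listed was 4. Genome build dm3 is named in the submitters' processing notes. Trimming, filters and aligner are not given in the labels or headers used, and the tags carry no coordinates. A list total is not the full depth of a library, so RPM is per 1000000 listed reads.

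Tags were selected and summed with Python 3.11.15. Tags of all lengths, families of all endings and the 64 endings were each fitted in R 4.3.3 by edgeR 4.0.16 (quasi-likelihood), with listed reads as library size, TMM, filterByExpr for tags and families, Benjamini-Hochberg adjustment over all features tested and a threshold of 0.05. Absent tags entered as 0. Single levels were compared with exact two-sided permutation tests over libraries. A fold against a group with no listed reads is the lowest library value over the value of 3 reads in a library of the other group, whichever library makes it smallest. The fitting script was checked on simulated counts.

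The members and lists were chosen with earlier results of these data known. The text names the 10 families with the highest mean RPM, and among families that passed, did not overlap and had a mean of at least 10 RPM, up to 5 rises and 5 falls. Alternatives were DESeq2 1.42.0, listed-read totals, other filters and length limits, distinct tags, a replicate block and leaving out each library. DESeq2 was run on the same deposited counts.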

Additional observations from a re-analysis of the deposited data

How the results depend on the processing

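The higher level of CCA-ended RNAs in snapback kept its direction under every alternative run. The log2 ratio of RPM was 2.90, and it was 2.17 for tags of 16 to 20 nt, 2.60 for 14 to 34 nt, 3.66 without the 30 nt tag and its relatives in the total, and 2.46 to 3.55 without 1 library (5.49-fold without yw replicate 1 and 11.7-fold without yw replicate 2). Alternatives chosen after seeing the data gave 1.92 without the 2 most abundant families and 3.13 for families with a tail share of at least 50%. With 40 nt tags added that hold a member's last 14 bases at any place, also chosen then, it was 1.76. The share of short reads differed 9.35-fold without yw replicate 1 and 30.4-fold without yw replicate 2. The mean snapback rank of 10 was 12.5 by distinct tags.

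Counts of calls by edgeR depended on single libraries. The 63 changed families became 0 without either snapback library (56 and 46 at an unadjusted p under 0.05), 31 without yw replicate 1 and 38 without yw replicate 2, and DESeq2 called 58. The 111 changed tags became 8 with no filter on low counts, DESeq2 called 107, and calls were lost without any 1 library. Without either snapback library the named families that had passed lost their calls, and without yw replicate 1 families 2 and 4 did. These fits leave a single library in a group, and shares over all families are not given for them. Family 6 was at 0.19 on the log2 scale with absent tags at 3 reads and between -0.52 and 0.11 without 1 library, the highest being without yw replicate 2. Totals in place of TMM shifted the median log2 difference of all endings by -0.93, of families by 0.12 and of tags by 0.55. The CCA ending passed throughout.

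Libraries with the same replicate number share only that number, with a correlation of their deviations of 0.03 over 8997 tags. With a replicate block 18 families and 0 tags passed (69 at an unadjusted p under 0.05), family 4 had an adjusted p of 0.0514, and the log2 ratio of CCA level was 3.00. Tags under 4 reads, absent from the lists, limit what can be said of weak families.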
